A study of Mus musculus with 6 samples.

Results

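Aminoacyl-tRNA synthetase genes were described in mouse pancreatic acinar cells that carried an oncogenic allele, with and without loxP sites at Setdb1. The members were 36 genes, 20 for cytosolic and 16 for mitochondrial enzymes, out of 23462 named genes on the array. They were found by matching the accession of each probe to a gene symbol, which gave 66 probes. The members were a stated list of gene names. No cut on measured values picked them, but they were chosen with earlier results of these data known. All 36 passed the filter on dim probes, and 35 were well above background on all 6 arrays.

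Each synthetase joins 1 amino acid to its own tRNAs, and the charged tRNA then carries it to the ribosome. A cytosolic set of enzymes serves translation in the cytosol and a mitochondrial set, also encoded in the nucleus, serves translation of mitochondrial DNA. Acinar cells of the pancreas make and secrete large amounts of digestive enzymes, so their demand for charged tRNA is high. When an amino acid runs short, uncharged tRNA activates the kinase GCN2 (gene Eif2ak4), translation of the transcription factor ATF4 rises, and ATF4 switches on genes for amino acid synthesis and transport and several cytosolic synthetase genes.

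The series compared acinar cells isolated from pancreata of mice of 2 genotypes, with 3 samples and 3 one-colour arrays each. KC mice carried Ptf1aCre and a Cre-dependent oncogenic allele, and KCS mice carried both and Setdb1flox/flox as well. Both groups were on a C57BL/6 background, and Cre was made where Ptf1a, a gene of the pancreatic lineage, is active. Per the series title, the wider question is whether pancreatic ductal adenocarcinoma needs Setdb1, a histone methyltransferase gene. No group without the oncogenic allele was compared here, so every value is KCS set against KC. The labels give no age and do not say whether the samples came from separate animals, so the p-values measure the spread between these samples, which may be technical.

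Values are log2 signal minus the 75th percentile of the array, and a difference is KCS minus KC on that scale. A gene was called at an adjusted p below 0.05 by limma with Benjamini-Hochberg adjustment over 27102 rows, each a gene or an unnamed probe. The groups stood far apart over the whole array. Called lower in KCS were 34.4% of rows and called higher were 25.9%, and the median difference of all rows was -0.19. The 75th percentile itself was 61.2 to 68.6 scanner units in KC and 347 to 423 in KCS, and the 100 brightest probes took 34.4% to 37.4% of the signal in KC and 13.4% to 14.6% in KCS. Setdb1, read by 1 probe, was -0.91, -1.05 and -0.32 in KC replicates 1 to 3 and -0.28, -0.44 and -0.55 in KCS, a difference of 0.33 ± 0.24 (SE, adjusted p = 0.270). Whether that probe lies in the floxed part is not given in the sources used here, so it does not check the genotype.

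The markers of the labelled cell type were bright in KC and far dimmer in KCS. All 10 acinar marker genes fell in KCS, where 34.4% of all rows fell. Their summed signal, in multiples of the 75th percentile, was 18047 to 21397 in KC and 1.5 to 1167 in KCS. KCS replicate 3 was the highest KCS array. Higher in KCS were 5 of 8 ductal, 9 of 9 fibroblast, 7 of 8 macrophage and 6 of 7 endothelial markers (25.9% of all rows were). Lower were 7 of 8 islet markers (34.4% of all rows were). With spike-in scaling, though, 0 islet markers were called lower and 4 higher (2.85% and 87.2% of all rows). The summed fibroblast signal was 201 to 268 in KC and 1123 to 1414 in KCS, and the macrophage sum was 52.7 to 81.7 and 280 to 377. The endothelial sum was 10.2 to 11.3 and 22.5 to 36.2, the ductal sum 41.7 to 54.4 and 338 to 415, and the lymphocyte sum 7.96 to 17.5 and 2.86 to 7.92. The lymphocyte markers did not share that direction. Of the 7 tested, Cd3e and Cd4 were called lower and Cd3g and Cd2 higher (34.4% and 25.9% of all rows). The macrophage marker Fcgr1 had no KC array with signal well above background. These marker differences lie between the same 2 groups as the synthetase results below, and their part in those results was not tested. In bulk samples, fewer cells of a type and less RNA per cell cannot be told apart.

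Promoter stretches are shown first for the 5 cytosolic synthetase genes whose promoter held the core of the amino acid response element, the motif that ATF4 binds, and for Asns, asparagine synthetase, a long-known ATF4 target. Each runs from 120 bases before the start site through 25 bases from it on, from RefSeq (GRCm38.p6), and capitals mark the core, TGATGNAA or its reverse complement TTNCATCA.
Gars (chr6:55037881-55038025, + strand): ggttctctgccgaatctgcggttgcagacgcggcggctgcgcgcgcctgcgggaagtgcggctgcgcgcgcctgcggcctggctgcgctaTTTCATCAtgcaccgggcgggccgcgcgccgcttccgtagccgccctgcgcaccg
Yars (chr4:129189783-129189927, + strand): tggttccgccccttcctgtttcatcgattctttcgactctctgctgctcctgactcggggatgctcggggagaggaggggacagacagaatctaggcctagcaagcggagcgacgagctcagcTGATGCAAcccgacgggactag
Iars (chr13:49682010-49682154, + strand): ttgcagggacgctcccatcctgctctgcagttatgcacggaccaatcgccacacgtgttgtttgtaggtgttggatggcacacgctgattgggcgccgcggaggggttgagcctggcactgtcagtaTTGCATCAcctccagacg
Tars (chr15:11399634-11399778, - strand): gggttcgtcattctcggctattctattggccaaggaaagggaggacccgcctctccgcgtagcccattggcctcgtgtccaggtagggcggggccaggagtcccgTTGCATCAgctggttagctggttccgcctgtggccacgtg
Aars (chr8:111033722-111033866, + strand): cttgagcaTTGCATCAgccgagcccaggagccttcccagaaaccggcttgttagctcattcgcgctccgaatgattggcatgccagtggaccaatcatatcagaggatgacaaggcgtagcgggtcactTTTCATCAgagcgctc
Asns (chr6:7693185-7693329, - strand): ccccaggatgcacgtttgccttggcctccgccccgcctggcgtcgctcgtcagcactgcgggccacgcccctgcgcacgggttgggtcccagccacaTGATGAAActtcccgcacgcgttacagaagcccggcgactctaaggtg

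On either strand, the core was found in 1304 of 32851 promoters of the same 300 bases, or 3.97%. Of the 20 cytosolic synthetase genes, 13 had a promoter in the table, and 5 of those held the core. It began 30 bases before the start site in Gars, 15 before it in Tars, 112 before and 9 after it in Aars, 3 after it in Yars and 7 after it in Iars. Of the 14 mitochondrial synthetase genes with a promoter, 0 held it, which says only that these letters were not in this window. Among the 21 genes of the GCN2 and ATF4 list with a promoter, 5 held it, namely Asns, Chac1, Slc7a11, Trib3 and Vldlr. These are matches of letters, not measured binding.

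Most cytosolic synthetase genes had lower scaled signal in KCS. By limma, 16 of 20 fell and 0 rose, against 34.4% and 25.9% of all rows. At an unadjusted p below 0.05 the counts were 17 and 0, but the share of all rows at that threshold was not counted. Their median difference was -1.11, beside -0.19 for all rows, and 19 of 20 lay below the median of all rows. In 17 of the 20, every KCS array was below every KC array, which held for 38.4% of all rows. The direction rests on the scale: with arrays scaled to the spike-in control spots, all 20 were higher in KCS and called (87.2% of all rows were) and 0 were lower (2.85% of all rows), with a median of 1.79 beside 2.70 for all rows. The cytosolic median minus that of all rows was -0.92 on both scales and with median centring. These scalings each subtract 1 constant per array, so that gap cannot differ between them and its recurrence is no further support. Centred on the median of each array, their median was -0.76 while that of all rows was 0.16, and 12 of the 20 were called lower (26% of all rows) and 1, Aars, higher (33.8%). After quantile normalization 14 were called lower and 0 higher (29.3% and 29.1% of all rows). With normexp background correction 12 were called lower and 2, Aars and Qars, higher (55% and 25%), and there the cytosolic median of -0.44 lay above the -0.61 of all rows. That correction adds an offset of 50 units before scaling, while the median processed signal was 7.25 to 8.0 units in KC and 32.9 to 36.7 in KCS. The offset therefore narrows the range of log2 values more in KC. Its part in these normexp counts and medians was not tested.

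The array medians of the 20 genes were 3.72, 3.51 and 3.68 in KC replicates 1 to 3 and 2.76, 2.78 and 2.80 in KCS. No KCS array came within the KC range. KCS replicate 3 had the most acinar signal of the KCS arrays. It was the highest KCS array in 12 of the 20 genes, which held for 32.9% of all rows. The same held for 11 of the 16 mitochondrial genes and for all 8 cell cycle genes, 6 of which were called higher. Whether acinar signal goes with this order was not tested. Without KCS replicate 3, 16 cytosolic genes were called lower with a median of -1.14. Slides held both groups, the first with replicate 1 and the second with replicates 2 and 3. The median difference was -1.22 on the first slide and -1.05 on the second, 16 genes were called lower with the slide as a block (36.7% of all rows were), and 14 on the second slide alone (30.8%).

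**Figure D1:**
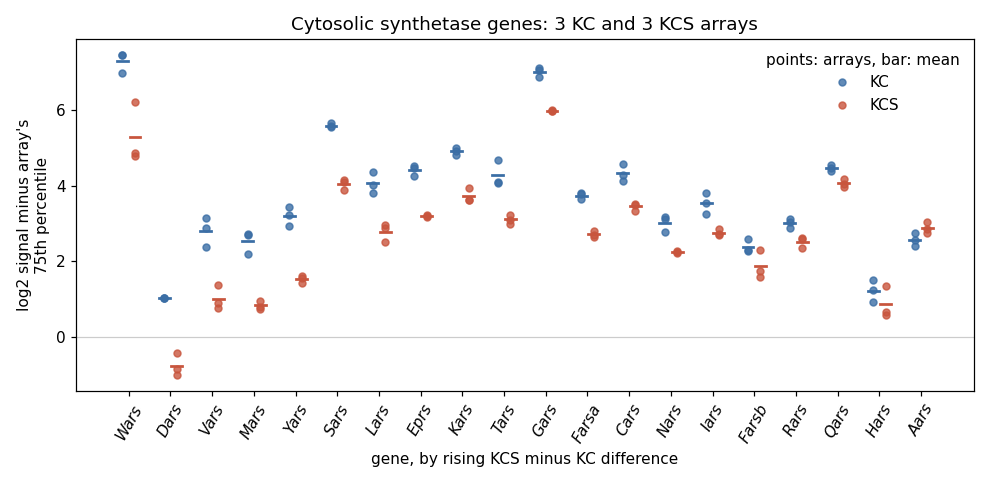
Scaled log2 signal (y axis, log2 signal minus the 75th percentile of the array) of the 20 cytosolic synthetase genes on 3 KC and 3 KCS arrays; points are arrays and bars are group means. In 17 genes all KCS points lie below all KC points, an order that holds for this scaling and not for spike-in scaling, where all 20 genes were higher in KCS.

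Wars, the tryptophanyl-tRNA synthetase gene, fell furthest among the members. Its signal was 6.98, 7.46 and 7.47 in KC and 4.78, 4.88 and 6.21 in KCS, a fall of 4.03-fold (difference -2.01 ± 0.41, adjusted p = 0.00609). All KCS arrays were below all KC arrays, and KCS replicate 3, also the KCS array with the most acinar signal, stood above the other KCS arrays. Its second probe gave -1.58, the slides gave -2.19 and -1.92, and after quantile normalization the call was lost at -1.28 (adjusted p = 0.0643). Wars is known as a gene that interferon gamma induces, and all 10 genes of an interferon-gamma list were called higher in the same arrays (25.9% of all rows were), with Irf1 at 1.81. One of them, Cxcl9, passed the filter on dim probes through KCS alone.

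Dars, which charges aspartate in the multi-synthetase complex, was 1.02, 1.02 and 1.04 in KC and -0.86, -1.01 and -0.42 in KCS. The KC arrays were nearly equal, with a mean of 1.03 ± 0.01 (SD, n = 3), and the KCS mean was -0.77 ± 0.31. The groups did not overlap, and the fall was 3.46-fold (difference -1.79 ± 0.21, adjusted p = 0.000610).

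Vars, for valine, was 2.38, 3.14 and 2.88 in KC and 0.77, 0.90 and 1.36 in KCS. It fell by as much as Dars, 3.46-fold, with a wider spread (difference -1.79 ± 0.27, adjusted p = 0.00179). All KCS values were below the lowest KC value, that of KC replicate 1. Mars, for methionine, which charges the initiator tRNA as well as the elongator, was 2.70, 2.19 and 2.71 in KC and 0.96, 0.73 and 0.80 in KCS. Without overlap it fell by 3.26-fold (difference -1.71 ± 0.21, adjusted p = 0.000789).

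Yars, for tyrosine, was 3.43, 2.93 and 3.23 in KC and 1.57, 1.42 and 1.61 in KCS. It fell by 3.16-fold without overlap (difference -1.66 ± 0.20, adjusted p = 0.000675), and its second probe gave -0.97. Sars, for serine, also charges the tRNA on which selenocysteine is made. It was 5.66, 5.55 and 5.57 in KC and 4.10, 3.89 and 4.15 in KCS, with the smallest adjusted p of the 36 members under this scaling (2.93-fold lower, difference -1.55 ± 0.17, adjusted p = 0.000479). The KC range and the KCS range were each narrow and lay far apart.

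Gars and Kars each encode both the cytosolic and the mitochondrial enzyme, for glycine and lysine, and are counted here as cytosolic. Gars was 7.11, 6.88 and 7.07 in KC and 5.97, 5.99 and 6.00 in KCS. The KCS arrays were almost level, all under KC, and the gene fell by 2.06-fold (difference -1.04 ± 0.16, adjusted p = 0.00197). After quantile normalization Gars was at -0.19 (adjusted p = 0.352), so its call did not hold there. Kars was 4.93, 5.0 and 4.82 in KC and 3.63, 3.62 and 3.95 in KCS, 2.27-fold lower without overlap (difference -1.18 ± 0.18, adjusted p = 0.00177). Eprs, whose fused protein charges both glutamate and proline tRNAs, was 4.52, 4.47 and 4.27 in KC and 3.22, 3.17 and 3.20 in KCS. It fell by 2.33-fold, again without overlap (difference -1.22 ± 0.16, adjusted p = 0.00108), and its 4 probes lay between -1.5 and -0.90.

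The other 7 called cytosolic genes fell by 1.41-fold to 2.43-fold. Lars, for leucine, was at -1.28 ± 0.23 (adjusted p = 0.00334) and Tars, for threonine, at -1.18 ± 0.23 (0.00457). Farsa, the catalytic subunit of the phenylalanine enzyme, was at -1.03 ± 0.16 (0.00198), while Farsb, its partner subunit, was not called at -0.52 ± 0.24 (0.105) and its groups overlapped. The other Farsa probes gave -0.90 and -0.13. Cars, for cysteine, was at -0.88 ± 0.19 (0.00706).

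Nars, for asparagine, was at -0.78 ± 0.18 (adjusted p = 0.0106) and Iars, for isoleucine, at -0.77 ± 0.20 (0.0159). Iars lost its call without KCS replicate 2 (0.0585), and on the second slide alone neither passed (0.069 for Nars and 0.0855 for Iars). Rars, for arginine, passed narrowly at -0.50 ± 0.18 (0.0463). That call was lost when any 1 of the 6 arrays was left out, and 2 other probes of Rars gave 0.01 and -0.09.

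The other 3 cytosolic genes that were not called besides Farsb were Aars, Hars and Qars. Aars, for alanine, was the only cytosolic member with a positive difference under this scaling: it was 2.76, 2.56 and 2.40 in KC and 3.03, 2.86 and 2.76 in KCS (0.31 ± 0.18, adjusted p = 0.187), and its groups just overlapped. Hars, for histidine, was at -0.36 ± 0.28 (0.291), and its difference was 0.41 on the first slide and -0.75 on the second. Qars, for glutamine, was at -0.41 ± 0.16 (0.0666) without overlap of the groups, and with normexp background correction it was called at 0.26.

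Several synthetases sit in a large complex with scaffold proteins. Of its 8 catalytic members (Dars, Eprs, Iars, Kars, Lars, Mars, Qars and Rars), 7 fell, with a median of -1.20, and of the 12 genes outside it 9 fell, with a median of -1.03, where 34.4% of all rows fell. By the fold of the catalytic domain, 8 of 9 class I genes fell (median -1.28) and 7 of 10 class II genes (median -1.03), leaving out Eprs, which holds both. These splits were not tested against each other. With spike-in scaling all of these genes were higher.

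**Figure D2:**
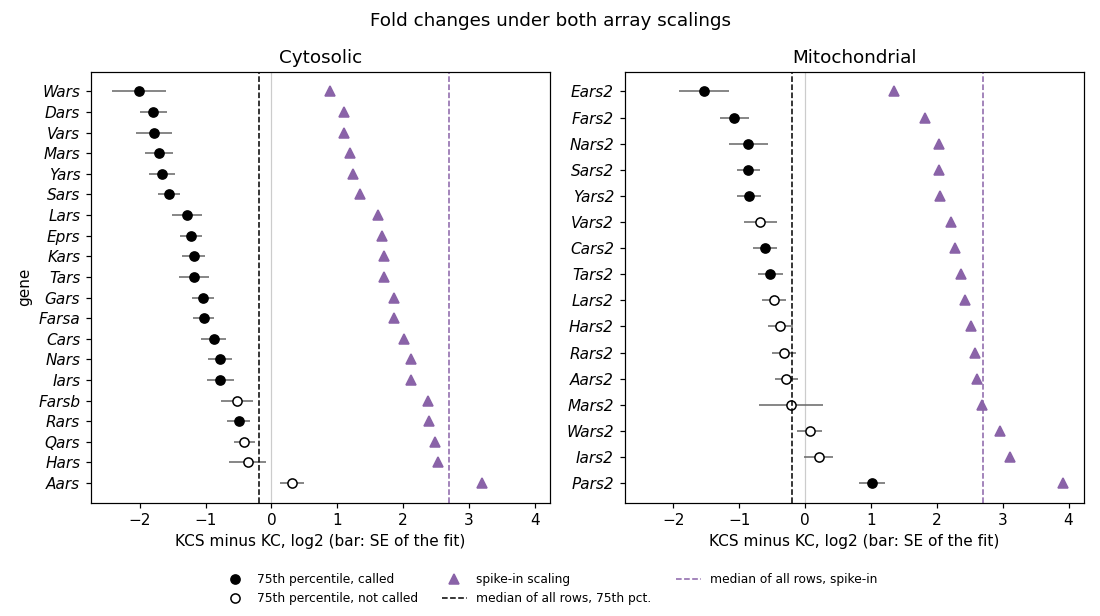
KCS minus KC difference (x axis, log2, 3 arrays per group) of the cytosolic and mitochondrial synthetase genes; circles use 75th percentile scaling (filled if called, bars are SE of the limma fit), triangles use spike-in scaling, and dashed lines are the medians of all rows, -0.19 and 2.70. With 75th percentile scaling Wars, at -2.01, is the lowest and Pars2, at 1.01, the highest, and with spike-in scaling all 36 differences are above 0. Mars2, too dim in KC for a fold, is drawn at its measured signal.

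Mitochondrial synthetase genes were more mixed. Of 16, 7 fell, 1 rose and 8 were not called, where 34.4% of all rows fell and 25.9% rose, and with spike-in scaling all 16 were called higher, as were 87.2% of all rows. Mars2 counts there by its measured signal, which was near background in KC. With median centring 3 were called lower (26% of all rows) and 1 higher (33.8%), with a median of -0.15. Their median difference was -0.50, or -0.53 over the 15 other than Mars2, and 13 of 16, Mars2 among them, lay below the median of all rows. Rows well above background on all arrays had a median of -0.36, and 10 of those 15 lay below it. All KCS arrays were below all KC arrays in 10 genes (38.4% of all rows) and above them in 1 (29.8%). The array medians were 0.19, 0.31 and 0.29 in KC and 0.29, 0.26 and 0.52 in KCS, so the groups overlapped in that summary. On the slides the median difference was -0.56 and -0.49, with the slide as a block 9 genes were called lower (36.7% of all rows) and 1 higher (26.8%), and on the second slide alone 4 were lower (30.8%) and 1 higher (21%).

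Pars2, the mitochondrial prolyl-tRNA synthetase gene, was the 1 member that rose under this scaling. It was -0.28, -0.82 and -0.50 in KC and 0.56, 0.40 and 0.49 in KCS. Every KCS array was above every KC array, and the gain was 2.02-fold (difference 1.01 ± 0.20, adjusted p = 0.00510), with 0.83 on the first slide and 1.10 on the second. Its second probe, well above background on 3 arrays, gave 0.39 and was not called (adjusted p = 0.148). Eprs, which charges proline in the cytosol, fell in the same arrays.

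Ears2, for glutamate, fell furthest among the mitochondrial genes, from 2.50, 1.19 and 2.29 in KC to 0.47, 0.12 and 0.76 in KCS. KC replicate 2 stood well below the other KC arrays but above all KCS arrays (2.91-fold, difference -1.54 ± 0.38, adjusted p = 0.0127). Its 4 probes gave -1.76 to -1.44, and on the second slide alone the adjusted p was 0.0725. Fars2, for phenylalanine, was at -1.08 ± 0.22 (0.00591), with -0.37 at its other probe.

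Sars2, for serine, was at -0.86 ± 0.17 (adjusted p = 0.00562), Nars2, for asparagine, at -0.86 ± 0.29 (0.0396) and Yars2, for tyrosine, at -0.85 ± 0.18 (0.00651). Cars2, for cysteine, was at -0.62 ± 0.18 (0.0247) and Tars2, for threonine, at -0.53 ± 0.19 (0.0457). The calls of Cars2, Nars2 and Tars2 were each lost in 5 of the 6 fits that left out an array, and 4 to 6 mitochondrial genes were called lower in those fits. The count was 4 without KC replicate 3, without KCS replicate 1 or without KCS replicate 2.

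**Figure D3:**
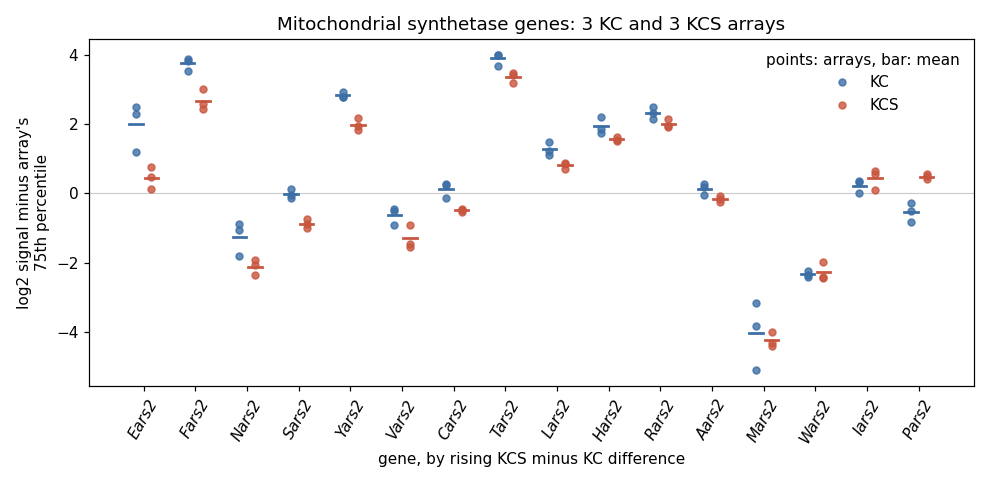
Scaled log2 signal (y axis, log2 signal minus the 75th percentile of the array) of the 16 mitochondrial synthetase genes on 3 KC and 3 KCS arrays; points are arrays and bars are group means. All KCS points lie below all KC points in 10 genes and above them in Pars2, under this scaling; with spike-in scaling all 16 genes were higher in KCS.

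Among the genes not called, Vars2, for valine, was at -0.68 ± 0.25 (adjusted p = 0.0507), just short of the threshold. Lars2, for leucine, was at -0.47 ± 0.18 (0.0588), Hars2, for histidine, at -0.38 ± 0.19 (0.132), Rars2, for arginine, at -0.32 ± 0.18 (0.171) and Aars2, for alanine, at -0.29 ± 0.18 (0.197). Iars2, for isoleucine, was at 0.21 ± 0.22 (0.440) and Wars2, for tryptophan, at 0.07 ± 0.20 (0.788). Mars2, for methionine, had no KC array with signal well above background, so no fold is given for it.

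For some of these the choice of probe decides the reading. The second probe of Lars2 gave -2.31 (adjusted p = 0.00157) and that of Iars2 gave -0.93 (0.00555), and that of Wars2, well above background on 3 arrays, gave -0.84 (0.0361). Of the 20 members with several probes, the probes of 15 all had 1 sign, those of 5 had both, and in 11 they differed by more than 0.5.

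Within an array, the difference between 2 probes is the same for the 75th percentile, median and spike-in scalings, which each subtract 1 constant per array, but not for quantile normalization or normexp. The median cytosolic gene exceeded the median mitochondrial gene by 3.54, 3.20 and 3.39 in KC and by 2.48, 2.52 and 2.28 in KCS. That gap was smaller on each KCS array than on any KC array. With normexp the median differences of the cytosolic and mitochondrial genes were close to each other, at -0.44 and -0.34. The levels of different probes cannot be compared, so only the change of the gap is read, and it says nothing of which set moved.

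Pairs of enzymes for the same amino acid were compared in the same way. In 15 pairs the mitochondrial probe was well above background on all arrays, and the cytosolic gene had the more negative difference in 10 of them and the mitochondrial gene in 5. The tally depended on the probes: with the mean of the probes of each gene it was 9 and 6, and with the dimmest probe 7 and 8, where the shift of the leucine pair was 1.27 in place of -0.81 and that of the isoleucine pair 0.15 in place of -0.98. It was 11 and 4 after quantile normalization and 10 and 5 with normexp. The within-array difference was lower on all KCS arrays than on all KC arrays in 9 pairs, higher in 1 and overlapping in 5. How often other pairs of genes separate in this way was not counted, so these counts are not read as particular to the pairs. For single rows the shares were 38.4% lower and 29.8% higher. Eprs enters both the glutamate and the proline pair. Eprs minus Pars2 was 4.79, 5.29 and 4.77 in KC and 2.66, 2.77 and 2.71 in KCS, a shift of -2.24, or -1.27 with normexp. Wars minus Wars2 was 9.21, 9.86 and 9.83 in KC and 6.76, 7.28 and 8.64 in KCS, a shift of -2.08, with KCS replicate 3 again the highest KCS array. That shift was -1.59 after quantile normalization, -0.43 with normexp and -0.74 with the dimmest probes. Aars and Aars2 were the pair with the opposite shift, at 0.60. The 5 overlapping pairs were Eprs with Ears2, Farsa with Fars2, Hars with Hars2, Nars with Nars2 and Rars with Rars2.

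**Figure D4:**
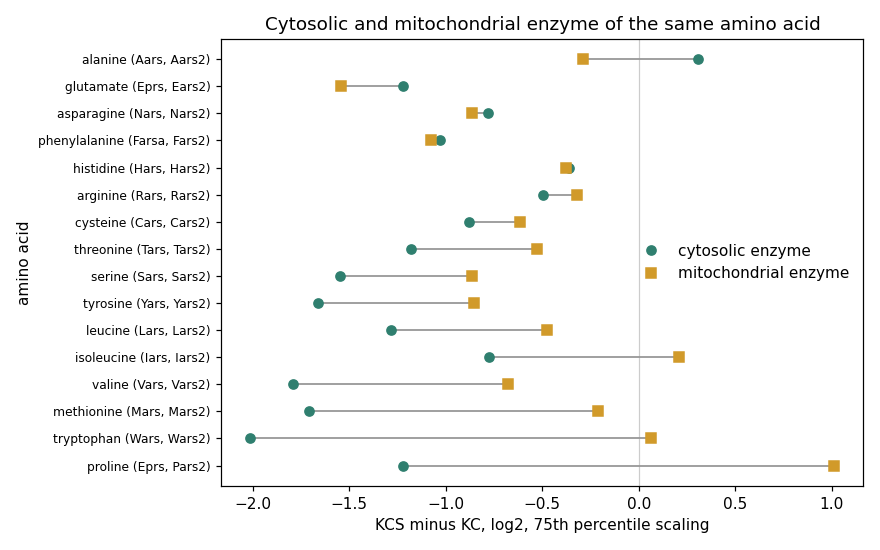
KCS minus KC difference (x axis, log2, 75th percentile scaling) of the cytosolic (circles) and the mitochondrial (squares) synthetase gene for the same amino acid, 16 pairs joined by lines, each point from 3 KC and 3 KCS arrays. With spike-in or median scaling the points move but the lines keep their length, with quantile normalization or normexp the lengths change too, and with spike-in scaling all points lie above 0; the pair for proline, Eprs and Pars2, is the widest drawn, at -2.24, and Mars2 had no KC array with signal well above background.

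How bright a gene was also moved with its difference. Above a mean scaled signal of 6 the median of all 782 rows was -1.34 and 82.1% fell, so the falls of Gars and Wars are read against that: Wars was below that median and Gars above it. From 2 to 4 the median of 3988 rows was -0.02 and 30.2% fell, while the 11 cytosolic genes there had a median of -0.88, 9 of them fell, and 10 lay below the median of their band. From 0 to 2 the median of 5327 rows was 0.03, and the 4 cytosolic genes there had a median of -1.75. From 4 to 6 it was -0.43 for 1657 rows and -1.18 for the 3 cytosolic genes. Of the mitochondrial genes, 8 were at or below 0, with a median of -0.45 beside -0.25 for 15348 rows, and 5 lay below that band median. The 4 from 0 to 2 had a median of -0.42, with 3 below the band median. The 4 from 2 to 4 had a median of -0.69, with all 4 below the band median and 3 called lower. The bands were chosen after the data were seen.

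Genes that work beside the synthetases were counted in 6 lists of 68 genes, to be read against all rows: 34.4% called lower and 25.9% higher, and with spike-in scaling 2.85% and 87.2%. Of 11 relatives and scaffold genes 5 fell and 0 rose by limma (median -0.47), and with spike-in scaling all 11 were called higher, so the share that fell was not far from that of all rows. At an unadjusted p below 0.05, 5 were lower and 0 higher (share of all rows not counted). Tarsl2, which resembles the threonine enzyme, was at -1.92 ± 0.24 (adjusted p = 0.000838), Aarsd1, an editing protein for mischarged alanine tRNA, at -1.65 ± 0.19 (0.000563), and Sepsecs, which makes selenocysteine on its tRNA, at -1.32 ± 0.23 (0.00300). Of the scaffold genes, Aimp2 was at -0.91 ± 0.19 (0.00639) and Aimp1 at -0.64 ± 0.17 (0.0184), both called, and Eef1e1 was not called at 0.17 ± 0.24 (0.560).

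Of 12 genes of tRNA processing and export 7 fell and 2 rose (34.4% and 25.9% of all rows; median -0.89), and with spike-in scaling all 12 were called higher (87.2%). The falls included Tsen54, of the tRNA splicing endonuclease, at -1.88 ± 0.23 (adjusted p = 0.000726), Xpot, the tRNA exporter, at -1.38 ± 0.19 (0.00131), Rpp25l at -1.21 ± 0.17 (0.00117) and Elac2, which trims the tail of the precursor, at -1.06 ± 0.19 (0.00335). In the mitochondrial list for amidation, formylation and release, 3 of 9 fell and 1 rose, the median was 0.01, and with spike-in scaling all 9 were called higher (87.2% of all rows). The share that fell was near the 34.4% of all rows. The falls there were Gatc at -0.91 ± 0.17 (0.00419), Mtrf1l at -0.85 ± 0.19 (0.00820) and Mrrf at -0.83 ± 0.18 (0.00803), and Mtfmt, which formylates the charged initiator tRNA, rose by 0.84 ± 0.21 (0.0139).

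Of 7 cytosolic elongation genes 6 fell and 0 rose by limma (34.4% and 25.9% of all rows), and with spike-in scaling all 7 were called higher (87.2%). Their median was -1.33, beside -1.34 for all rows above a signal of 6, a band that holds 6 of them. At an unadjusted p below 0.05, 6 were lower and 0 higher (share of all rows not counted). Eef1b2 was at -1.64 ± 0.16 (adjusted p = 0.000370), Eef1a1, which brings charged tRNA to the ribosome, at -1.5 ± 0.20 (0.00104), Eef1d at -1.49 ± 0.18 (0.000736) and Eif5a at -1.33 ± 0.17 (0.000943). After quantile normalization the list median was -0.14, and the calls of Eef1b2 (-0.24, 0.222), Eef1a1 (-0.09, 0.641) and Eif5a (0.13, 0.485) were lost. Of the 7 mitochondrial factors 2 fell and 0 rose by limma (34.4% and 25.9% of all rows), with a median of -0.32, and with spike-in scaling all 7 were called higher (87.2%). They were Mtif2 at -1.07 ± 0.23 (0.00697) and Gfm2 at -0.94 ± 0.18 (0.00443), with 3 lower and 0 higher at an unadjusted p below 0.05 (share of all rows not counted). The Mtif2 call was lost after quantile normalization (-0.40, 0.213), with normexp (-0.38, 0.0955) and with the mean of its probes (-0.38, 0.111). Tufm, the counterpart of Eef1a1, was at -0.46 ± 0.18 (0.0611) and Tsfm at 0.40 ± 0.24 (0.195), neither called.

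In the GCN2 and ATF4 list, 15 of 22 genes fell and 3 rose (34.4% and 25.9% of all rows; median -1.45). With spike-in scaling 15 were called higher and 3 lower (87.2% and 2.85% of all rows). Phgdh, the entry enzyme of serine synthesis, was at -5.03 ± 0.49 (adjusted p = 0.000339), Asns at -4.51 ± 0.36 (0.000193), Slc7a5, a carrier of large neutral amino acids, at -4.01 ± 0.29 (0.000152) and Shmt2, of mitochondrial serine and glycine metabolism, at -1.89 ± 0.17 (0.000291). Asns went from a mean of 8.19 ± 0.12 (SD, n = 3) in KC to 3.68 ± 0.71 in KCS. With spike-in scaling Phgdh, Asns and Slc7a5 still had lower signal in KCS, at -2.14, -1.62 and -1.12, while Shmt2 was at 1.0 and no synthetase gene was below 0.

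Atf4 itself was at -1.46 ± 0.21 (adjusted p = 0.00146), a call that was lost after quantile normalization (-0.36, 0.217), and spike-in scaling turned it to 1.44. Eif2ak4 was not called at -0.50 ± 0.20 (0.0719). The 3 genes that rose were Cebpb at 2.16 (0.000879), Slc7a11, the cystine carrier, at 1.79 (0.0398) and Trib3 at 1.13 (0.0116). The groups of Slc7a11 overlapped, 2 of its KC arrays were well above background, and on the second slide alone its adjusted p was 0.169. Slc7a11 and Trib3 hold the motif core described above. So do Asns, Chac1 (-3.14) and Vldlr (-2.51), which fell under this scaling. Of the 5 synthetase genes with that core, Gars, Yars, Iars and Tars fell and Aars was not called, beside 16 of all 20 cytosolic genes that fell. With spike-in scaling all 5 were higher. Whether the core goes with the falls was not tested.

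**Figure D5:**
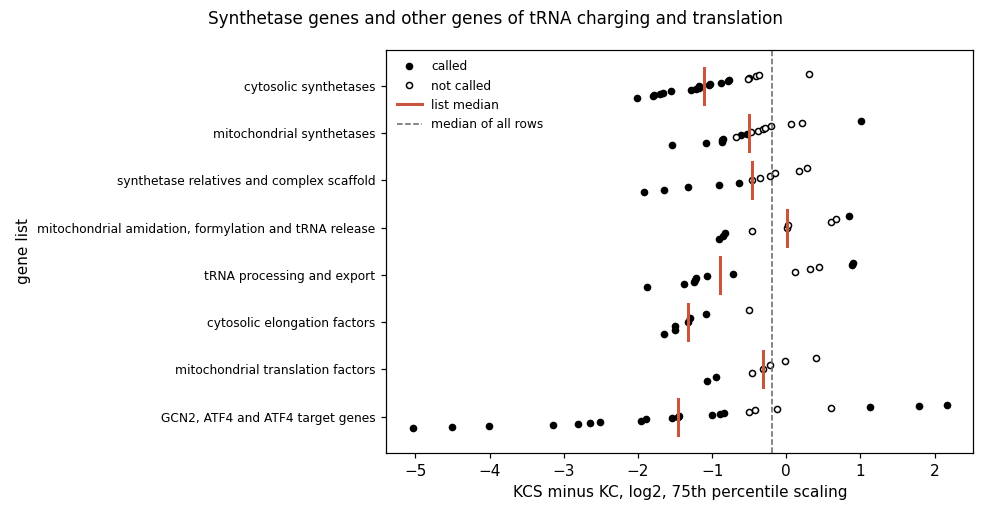
KCS minus KC differences (log2, 75th percentile scaling) of the synthetase genes and the genes of 6 other lists; filled points were called by limma and open points were not, the bar is the median of the list and the dashed line the median of all rows, -0.19. The cytosolic synthetase median is -1.11 and that of the GCN2 and ATF4 list is -1.45, and with spike-in scaling every list median is above 0.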

How the data were processed

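Per the file headers, the deposited files are output of Agilent Feature Extraction (version 12.0.3.1, also in the submitters' processing notes). The deposited processed signal is a spot intensity, in scanner units, from which that program had subtracted background per the file headers. Per the labels' protocols, total RNA was amplified and labelled with Cy3. The authors' deposited value table holds log2 values, centred on the median of each probe, and set against the scanner values scaled as here it matched at r = 0.999999 or above across probes. Its column medians were -0.01, 0.05 and 0.10 in KC and -0.05, -0.03 and -0.04 in KCS. It served as an alternative.

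Here each array's signal was put on a log2 scale and its own 75th percentile, taken over probes that are not controls, was subtracted. Outlier spots (88 to 140 per array) were left out, spots of a probe were averaged, and a probe was tested if 3 or more of the 6 arrays had it well above background. Probes were named by accession through RefSeq (GRCm38.p6). The file headers name another build, so no gene coordinates are given, and promoter positions are those of the RefSeq table. A symbol was found for 33767 probes and 22838 stayed unnamed. The probe with the highest mean stood for a gene. KCS was compared with KC by limma 3.58.1 (lmFit and eBayes, two-sided, no covariates, R 4.3.3) and p-values were adjusted over 27102 rows by the Benjamini-Hochberg method. Errors marked ± are SE of that fit unless SD is written. Adjusted p-values in brackets are from the same fit.

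Alternatives were other scalings, background correction, filters, probe rules, moderation and threshold, outlier spots kept, the deposited table, slide and replicate number as blocks, each slide alone and each array left out. Normexp (offset 50) was run on the median signal, as no mean signal column was found. Values per sample are given for the 6 called members with the largest fall, for those that rose, and for Gars, Kars, Eprs and Wars. In each list, the genes named are the 4 of lowest p-value, called or not, and Aimp1, Aimp2, Eef1e1, Atf4, Asns, Eif2ak4 and Setdb1 whatever their result. Per-sample values of Ears2 and Aars, the pairs described, and Cebpb, Slc7a11 and Trib3 were picked after their values were seen. The members and lists were chosen with earlier results of these data known. Of the other lists, cell cycle genes gave 6 of 8 higher (25.9% of all rows were). Their summed signal was 13.1 to 16.0 in KC and 24.3 to 32.3 in KCS. The interferon-gamma list had sums of 7.35 to 10.2 and 39.2 to 58.8. Lymphocyte markers gave 2 of 7 higher and 2 lower (25.9% and 34.4% of all rows). Among the cell cycle and lymphocyte genes called higher, Bub1 and Cd3g had no KC array well above background and passed the filter through KCS alone. Islet sums were 924 to 1073 and 144 to 250. Only the limma step was tested on simulated data, and scaling, background handling, the filter and the choice of probe were not. Tables came from pandas 2.3.3 and numpy 2.4.6, and figures from matplotlib 3.10.9, under Python 3.11.15. The name of the oncogenic allele and some genes that these rules select are not reported here.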

Additional observations from a re-analysis of the deposited data

How the results depend on the processing

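The direction depended on the scaling. Scaled to the spike-in controls, 20 cytosolic and 16 mitochondrial genes (Mars2, dim in KC, among them) were called higher and 0 and 0 lower, with medians of 1.79 and 2.40 (all rows 2.70). The signs that turned were, among members, Cars 2.02, Dars 1.10, Eprs 1.67, Farsa 1.87, Farsb 2.38, Gars 1.86, Hars 2.53, Iars 2.12, Kars 1.71, Lars 1.61, Mars 1.19, Nars 2.12, Qars 2.49, Rars 2.40, Sars 1.35, Tars 1.71, Vars 1.11, Wars 0.89, Yars 1.24, Aars2 2.61, Cars2 2.28, Ears2 1.35, Fars2 1.82, Hars2 2.52, Lars2 2.42, Nars2 2.03, Rars2 2.58, Sars2 2.03, Tars2 2.37, Vars2 2.22 and Yars2 2.04, and among other named genes Aarsd1 1.24, Aimp1 2.25, Aimp2 1.98, Atf4 1.44, Eef1a1 1.39, Eef1b2 1.25, Eef1d 1.40, Eif2ak4 2.40, Eif5a 1.57, Elac2 1.83, Gatc 1.99, Gfm2 1.95, Mrrf 2.06, Mtif2 1.83, Mtrf1l 2.04, Rpp25l 1.68, Sepsecs 1.58, Shmt2 1.0, Tarsl2 0.98, Tsen54 1.01, Tufm 2.44 and Xpot 1.51. Median centring called 1 cytosolic gene higher and 3 mitochondrial genes lower, with medians of -0.76 and -0.15. Normexp background correction called 2 cytosolic genes higher, with medians of -0.44 and -0.34 (all rows -0.61), and gave Qars 0.26, Rars 0.064, Tars2 0.11, Wars2 -0.87 and Aimp1 0.022. Quantile normalization gave Eif5a 0.13. The dimmest probe of each gene called 0 mitochondrial genes higher (median -0.68) and gave Rars 0.0061, Iars2 -0.93, Wars2 -0.84 and Eef1a1 0.40. Calls lost with their sign kept were, with median centring, Cars, Iars, Nars, Rars, Cars2, Nars2, Sars2, Tars2, Aimp1, Mrrf and Mtrf1l, with normexp, Cars, Iars, Nars, Fars2, Yars2, Aimp2, Mrrf and Mtif2, with quantile normalization, Gars, Wars, Nars2, Tars2, Atf4, Eef1a1, Eef1b2 and Mtif2, with the dimmest probe, Farsa, Yars, Fars2, Pars2, Tars2, Aimp2 and Mrrf, and on the second slide alone, Iars, Nars, Rars, Cars2, Ears2, Tars2, Aimp1 and Mtfmt. The causes were not tested.

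At an adjusted p below 0.01, 3 mitochondrial genes were lower. On the second slide alone, 4 were lower at an adjusted p below 0.05. Without a filter on dim probes 31883 rows were called, as more rows were tested. Leaving out 1 array gave 14 to 16 cytosolic and 4 to 6 mitochondrial genes lower. The calls of 14 of the 16 cytosolic and 5 of the 8 mitochondrial genes held in each such fit. In every alternative but spike-in scaling, 8 cytosolic (Dars, Eprs, Kars, Lars, Mars, Sars, Tars and Vars) and 0 mitochondrial calls held. Of these, Dars, Kars, Mars, Sars, Tars and Vars have 1 probe each, so the other probe rules could not alter their values. Genes with several probes faced those rules as well. With the deposited value table, and with outlier spots kept, the 35 members other than Mars2 kept direction and call.

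The replicate numbers were not taken as pairs, since deviations of same-numbered samples correlated at 0.33, 0.04 and 0.14, and not every sample correlated best with its own number. The replicate block called 16452 rows, 15 cytosolic genes (Rars lost) and 8 mitochondrial genes lower (Vars2 gained). With 3 arrays per group, their number and dim probes such as Mars2 limit the precision.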
